A study of Mus musculus with 16 samples.

Results

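The genes described here are 36 genes listed as genes of excitatory (glutamatergic) neurons of the cerebral cortex, measured in RNA from striatal dissections. Not all of them behaved as cortical markers in this tissue, as described below. They were given as a list of symbols. Of the 36, 34 had a row under the same symbol in the count tables, and 1 was found through a RefSeq synonym. Egr3os had no row and was not analysed here. The remaining 35 all passed the filter on low counts, among 13563 genes tested of 24421 with a row.

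The libraries came from 16 mice aged 13 months, 4 per group. BACHD mice, a model of Huntington disease, bear a mutant human huntingtin gene on a bacterial artificial chromosome. The groups are BACHD+Foxp2 (BACHD mice given a virus for overexpression of the transcription factor Foxp2), BACHD+Con (BACHD mice given a control virus), Con+Foxp2 (control mice given the Foxp2 virus) and Con+Con (control mice given the control virus). All 4 groups had thus been injected with a virus. The labels do not name the virus type, the cells it reached or the time to harvest. Values are CPM, that is, reads of a gene scaled to a common library total by trimmed mean of M values, and mice are numbered 1 to 4 within a group.

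The striatum is a deep forebrain nucleus built almost wholly of GABAergic neurons, most of them spiny projection neurons. It lies beneath the cortex, from which it is separated by the white matter of the corpus callosum, and it receives cortical axons but few excitatory cell bodies. Cortical excitatory neurons load glutamate into vesicles with the transporter Slc17a7, and they derive from a dorsal lineage marked by the transcription factors Emx1, Neurod1, Neurod2, Neurod6 and Tbr1. Genes of single cortical layers, such as Cux2 in upper layers, Rorb in layer IV, Fezf2 in layer V and Tle4 in layer VI, tell neurons of different depth apart. RNA of these genes in a striatal dissection can come from cortex taken along with it or, for some of them, from striatal or other cells that use the same gene.

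The promoters of Slc17a7, Neurod2, Tbr1 and Cck are shown because these 4 genes moved together between libraries, as described further on. Each line gives the 250 bases before the RefSeq start site on GRCm38.p6, 5′ to 3′ on the gene's own strand. Capitals mark each CANNTG, the E-box that basic helix-loop-helix factors such as Neurod2 and Neurod6 can bind.
Slc17a7, chr7:45163671-45163920, strand plus: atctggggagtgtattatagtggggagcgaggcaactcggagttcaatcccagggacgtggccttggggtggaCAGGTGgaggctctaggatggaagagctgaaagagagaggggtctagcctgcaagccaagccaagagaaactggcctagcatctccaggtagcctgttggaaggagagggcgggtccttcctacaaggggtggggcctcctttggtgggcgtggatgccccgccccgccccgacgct
Neurod2, chr11:98329646-98329895, strand minus: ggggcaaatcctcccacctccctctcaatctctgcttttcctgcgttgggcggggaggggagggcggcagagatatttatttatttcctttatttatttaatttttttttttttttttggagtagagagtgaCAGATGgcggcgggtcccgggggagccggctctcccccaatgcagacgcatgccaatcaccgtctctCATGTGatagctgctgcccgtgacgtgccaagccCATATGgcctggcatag
Tbr1, chr2:61804203-61804452, strand plus: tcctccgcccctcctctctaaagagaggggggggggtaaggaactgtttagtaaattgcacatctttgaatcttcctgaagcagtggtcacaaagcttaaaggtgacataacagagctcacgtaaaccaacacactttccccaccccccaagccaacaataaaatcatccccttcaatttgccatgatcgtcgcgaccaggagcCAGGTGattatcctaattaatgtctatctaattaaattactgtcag
Cck, chr9:121495695-121495944, strand minus: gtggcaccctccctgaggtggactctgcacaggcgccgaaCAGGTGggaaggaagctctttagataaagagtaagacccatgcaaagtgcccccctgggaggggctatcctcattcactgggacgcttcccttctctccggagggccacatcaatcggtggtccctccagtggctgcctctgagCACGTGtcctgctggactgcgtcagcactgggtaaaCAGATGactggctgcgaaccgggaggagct
Slc17a7 and Tbr1 had 1 CANNTG each in this window, and Neurod2 and Cck had 3 each. CANNTG reads the same on both strands, and it occurred in 25 of the 36 windows found for 26 of the listed symbols (69.4%), against 66.2% of all 32851 windows of that length. The narrower form CAGATG, or CATCTG on the other strand, is one of the CANNTG sequences. It was found once each in Neurod2 and Cck and in 5 of the 36 windows (13.9%), against 14.4% of all windows.

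The libraries held 2660395 to 3669748 reads assigned to genes, so that 3 reads corresponded to 0.817 to 1.13 CPM. The virus and genotype labels were checked with Foxp2 and Htt. Foxp2 was at 1290 to 1930 CPM in BACHD+Foxp2 mice, against 87.3 to 153 CPM in BACHD+Con mice, and at 3500 to 4390 CPM in Con+Foxp2 mice, against 93.2 to 150 CPM in Con+Con mice. Htt was at 470 to 767 CPM over the 8 BACHD mice and at 246 to 323 CPM over the 8 control mice. The dissected tissue was striatal by its markers in all 16 libraries, since 20 genes of striatal projection neurons summed to 5400 to 10600 CPM. The sum of 5 cortical markers (Slc17a7, Neurod2, Neurod6, Tbr1 and Emx1) ranged from 32.2 to 926 CPM. In 3 libraries it was below 50 CPM, namely BACHD+Con mice 2 and 3 and Con+Con mouse 4. Results that rest on those 3 libraries are given with and without them. In these bulk samples fewer cells of a type and less RNA per cell cannot be told apart.

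The 35 genes differed between mice of the same group far more than most genes did. Slc17a7 encodes the vesicular glutamate transporter VGLUT1 and lies on the plus strand at chr7:45163949-45176142 in the GENCODE annotation of GRCm38. It was at 271, 561, 497 and 223 CPM in BACHD+Foxp2 mice 1 to 4. It was at 328, 25.1, 19.1 and 537 CPM in BACHD+Con mice, at 293, 111, 451 and 411 CPM in Con+Foxp2 mice, and at 154, 89.1, 650 and 34.6 CPM in Con+Con mice. Its highest and lowest libraries, Con+Con mouse 3 and BACHD+Con mouse 3, differed 33.9-fold, and all 4 groups overlapped. The group means were 388 ± 166 CPM in BACHD+Foxp2, 227 ± 252 CPM in BACHD+Con, 316 ± 153 CPM in Con+Foxp2 and 232 ± 283 CPM in Con+Con (SD, n = 4 each). In both control-virus groups the SD was therefore larger than the mean.

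Neurod6, a basic helix-loop-helix factor of differentiated cortical and hippocampal excitatory neurons, was at 24.9, 40.9, 40.9 and 22.6 CPM in BACHD+Foxp2 mice. It was at 33.0, 1.65, 1.34 and 39.3 CPM in BACHD+Con mice, at 37.0, 9.82, 44.4 and 42.3 CPM in Con+Foxp2 mice, and at 19.8, 15.8, 54.6 and 1.86 CPM in Con+Con mice. The 3 libraries near 1 to 2 CPM are the 3 that were lowest in Slc17a7, and the highest of all, Con+Con mouse 3, was also the highest in Slc17a7.

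Tbr1, a T-box factor of early-born deep-layer neurons, was at 59.6, 111, 150 and 49.1 CPM in BACHD+Foxp2 mice. It was at 71.1, 6.94, 9.07 and 107 CPM in BACHD+Con mice, at 59.6, 7.20, 101 and 102 CPM in Con+Foxp2 mice, and at 31.3, 27.7, 139 and 1.86 CPM in Con+Con mice. Its extremes, BACHD+Foxp2 mouse 3 and Con+Con mouse 4, differed 80.5-fold, and here Con+Foxp2 mouse 2 joined the low libraries.

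Neurod2, which acts in the same lineage as Neurod6, was at 30.7, 86.7, 64.7 and 41.5 CPM in BACHD+Foxp2 mice. It was at 22.0, 8.92, 2.69 and 57.4 CPM in BACHD+Con mice, at 40.9, 12.1, 54.7 and 65.8 CPM in Con+Foxp2 mice, and at 21.5, 12.5, 74.3 and 3.35 CPM in Con+Con mice. The 3 lowest were again the libraries lowest in Slc17a7, and the range was 32.3-fold. Neurod1, an earlier factor of the lineage that overlaps the annotated gene Cerkl, had few reads in every library. It was at 4.02, 13.4, 6.19 and 5.42 CPM in BACHD+Foxp2 mice, at 5.84, 3.96, 0.672 and 13.5 CPM in BACHD+Con mice, at 6.76, 8.84, 7.29 and 16.7 CPM in Con+Foxp2 mice, and at 3.84, 0.965, 8.68 and 0 CPM in Con+Con mice.

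Emx1, a homeobox factor of the dorsal forebrain, was at 0.732, 4.58, 4.47 and 0.957 CPM in BACHD+Foxp2 mice, at 7.22, 0, 0 and 5.78 CPM in BACHD+Con mice, at 2.90, 0, 5.64 and 0.546 CPM in Con+Foxp2 mice, and at 1.48, 1.61, 8.04 and 0.744 CPM in Con+Con mice. These values rest on 0 to 25 reads per library. The 3 libraries without an Emx1 read were BACHD+Con mice 2 and 3 and Con+Foxp2 mouse 2.

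**Figure D1:**
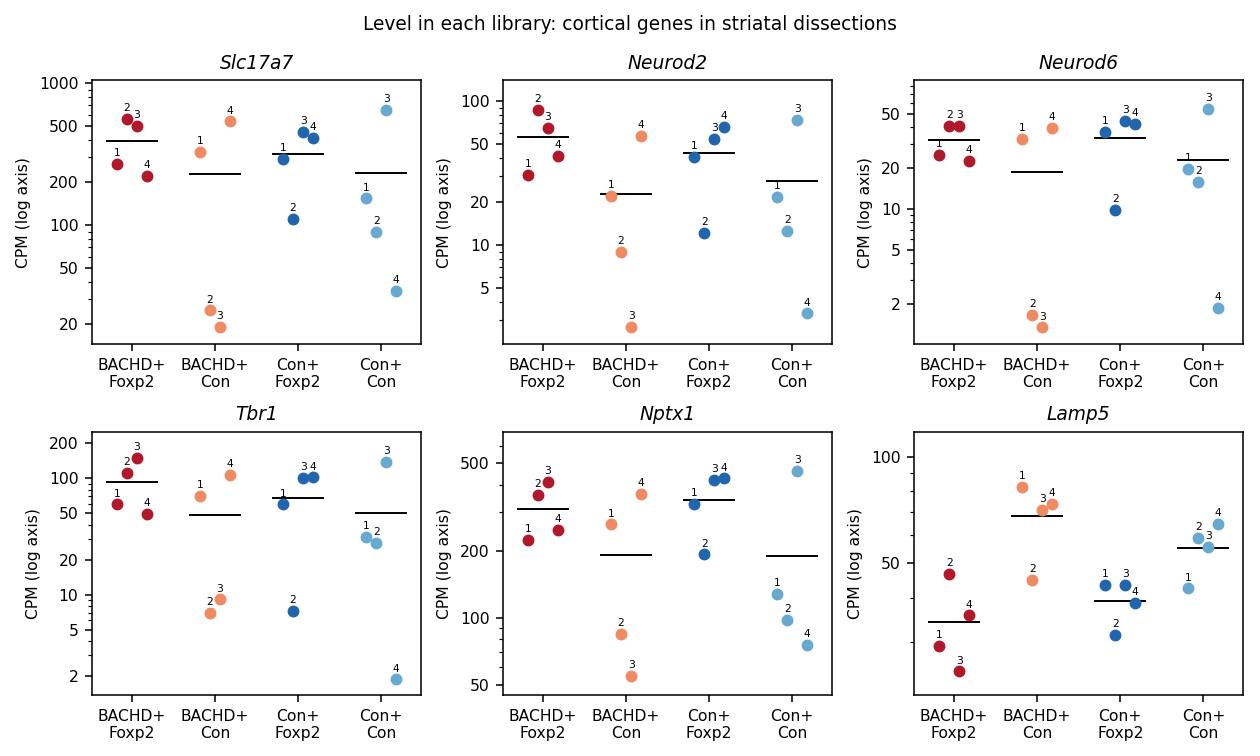
Level of 6 of the listed genes in each of the 16 libraries, in CPM on a log axis; each point is a mouse, numbered within its group, and bars are group means. Slc17a7, Neurod2, Neurod6, Tbr1 and Nptx1 were low in the same BACHD+Con mice 2 and 3 and Con+Con mouse 4, whereas Lamp5 was not.

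The spread was measured for each gene as the biological coefficient of variation, the square root of edgeR's gene-wise dispersion, with group means removed. Its median was 0.448 over the 35 genes and 0.237 over all tested genes. It lay above the trend of genes of the same level for 31 of the 35, as it did for 34.1% of all tested genes, and it was more than 2 times that trend for 11, against 0.9% of all tested genes. On the log2 scale the median pooled SD within groups was 0.86 for the listed genes and 0.36 for all tested genes. The largest ratios to the trend were those of Slc17a7 (4.85), Tbr1 (4.14), the neuropeptide gene Cck (3.21) and the neuronal pentraxin Nptx1 (3.16). At the other end the CaMKII inhibitor Camk2n1 (0.86) and the corepressor Tle4 (0.938) lay below it. The members of the list thus had no common spread: the highest library exceeded the lowest 253-fold for Nov, 74.7-fold for Rprm, 24.6-fold for Cck and 2.45-fold for Cux2, but 1.65-fold for Tle4 and 1.52-fold for Camk2n1. The lowest values of Nov (0.372 CPM) and Rprm (0.330 CPM) rest on a single read each.

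**Figure D2:**
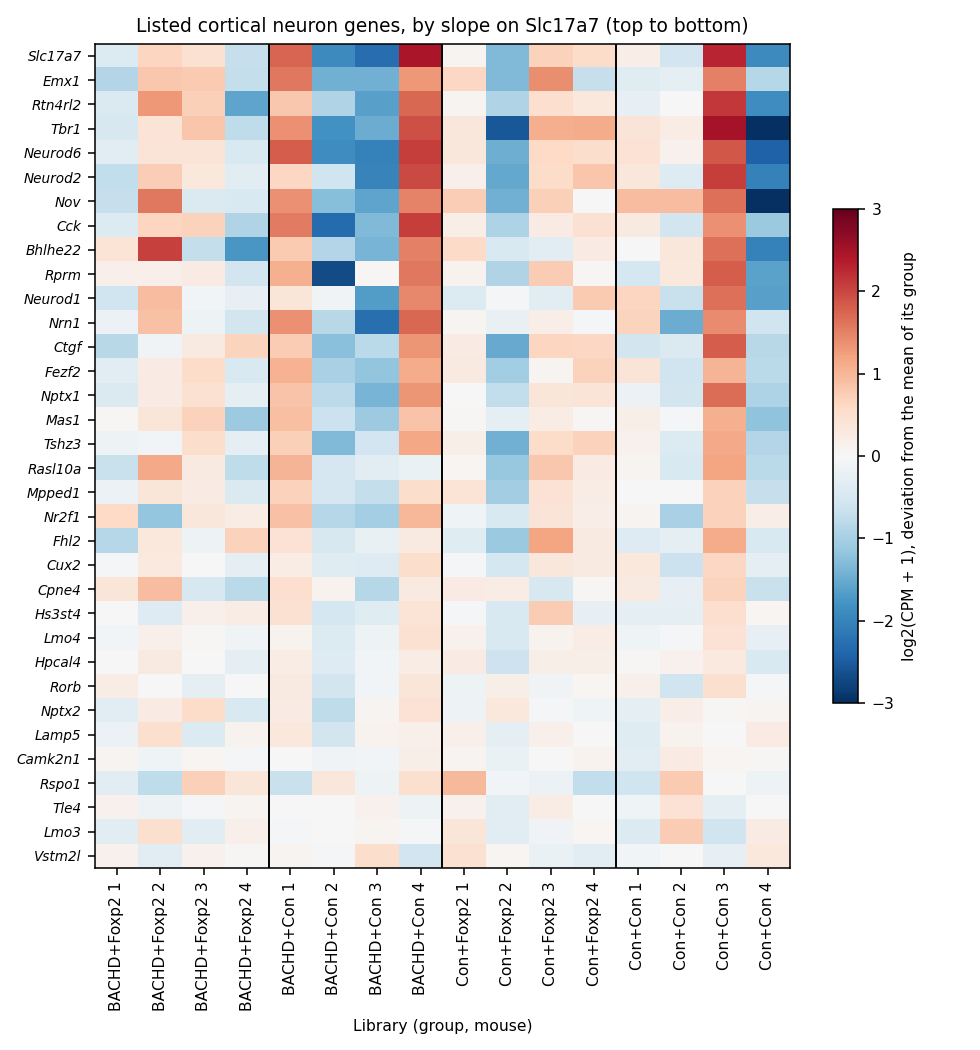
Deviation of log2(CPM + 1) of each of 34 listed genes (rows, ordered by slope on Slc17a7) from the mean of its group, in each library (columns, with lines between groups); colours end at 3. The upper rows were low together in BACHD+Con mice 2 and 3 and Con+Con mouse 4 and high together in BACHD+Con mice 1 and 4 and Con+Con mouse 3, and the bottom rows did not follow that pattern.

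To ask which of the genes moved with cortical tissue between mice of a group, each gene's counts were fitted on the log2 level of Slc17a7 with a mean per group. The slope is the log2 change of a gene per log2 unit of Slc17a7, so that a slope of 1 is a proportional change. Slc17a7 chose the axis and is not itself tested. Of the 34 others, 23 had a slope past the threshold of edgeR's quasi-likelihood test (adjusted p under 0.05 over 13562 genes), and all 23 were positive. Among all genes 5.47% were called, 4.04% with a positive slope and 1.43% with a negative one. At an unadjusted p under 0.05 there were 27 of the 34, against 15.2% of all genes. The median slope was 0.42 for the 34 genes and -0.01 for all tested genes. Genes and Slc17a7 were read in the same libraries, and the list was drawn up with earlier results of these data known.

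The lineage factors had the highest median slope of the kinds of gene on the list, 0.83, with 7 of 7 called. Emx1 had a slope of 1.24 (SE 0.25, adjusted p 0.00145), on the few reads given above. Tbr1 had a slope of 1.00 (SE 0.08, adjusted p 1.17e-09), and Neurod6 one of 0.98 (SE 0.08, adjusted p 6.43e-10). Their 95% intervals, 0.83 to 1.17 for Tbr1 and 0.82 to 1.13 for Neurod6, include a proportional change. Neurod2 had a slope of 0.83 (SE 0.07, adjusted p 3.18e-09), with an interval of 0.68 to 0.98 that ends just short of it. Bhlhe22, a basic helix-loop-helix factor of cortical projection neurons, had a slope of 0.72, and Neurod1 one of 0.63. The shallowest of the 7 was the nuclear receptor Nr2f1, a factor of cortical area patterning, at 0.31 (adjusted p 0.0232), and it lost its call in 9 of 24 alternative fits, with adjusted p up to 0.381. Neurod1 lost its call in 3 of the 24 (adjusted p up to 0.144), and Bhlhe22 and Emx1 in 1 each.

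Among 10 markers of cortical layers 7 were called, and the median slope was 0.37. The 5 steepest were genes of deep layers, while the deep-layer genes Hs3st4 and Tle4 were shallow. Nov, which encodes the secreted matricellular protein CCN3, had a slope of 0.79, and Rprm, a gene of layer VI neurons, one of 0.63. Ctgf, which encodes CCN2 and marks the deepest cortical sublayer, had a slope of 0.59 (SE 0.09, adjusted p 3.65e-05). Fezf2, the zinc-finger factor of subcerebral projection neurons, had a slope of 0.58, and Tshz3, a zinc-finger homeobox factor of deep-layer neurons, one of 0.50. Of the upper-layer homeobox gene Cux2 the slope was 0.24 (SE 0.04, adjusted p 5.33e-04), and it kept its call in all 24 alternatives. The heparan sulfate sulfotransferase Hs3st4 had a slope of 0.18 (adjusted p 0.0400) and lost its call in 11 of the 24.

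The 3 layer markers that were not called were Rorb (slope 0.11, adjusted p 0.113), Lamp5 (0.05, adjusted p 0.697) and Tle4 (-0.04, adjusted p 0.664). Rorb, the nuclear receptor of layer IV, ranged from 59.8 to 178 CPM, and Tle4 from 94.8 to 156 CPM, with 143 CPM in BACHD+Con mouse 3, the library lowest in Slc17a7. Their 95% intervals, 0.03 to 0.20 for Rorb, -0.05 to 0.16 for Lamp5 and -0.12 to 0.03 for Tle4, lie well under a proportional change.

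Of 6 secreted or synapse-organising proteins 3 were called, with a median slope of 0.33 over the 6. Cck, the neuropeptide of many cortical cells, had a slope of 0.78 (SE 0.06, adjusted p 1.87e-10), neuritin (Nrn1), a membrane-anchored growth protein, one of 0.63, and Nptx1, a pentraxin that clusters AMPA receptors, one of 0.57 (SE 0.03, adjusted p 4.04e-12). The slope of Nptx1 had an interval of 0.50 to 0.64. For each 100 reads of Slc17a7 there were 64.1 to 113 of Nptx1 in the 4 BACHD+Foxp2 libraries, against 67.8 to 337 in the BACHD+Con libraries, and the highest of the ratios were those of the libraries with little Slc17a7. In contrast the ratio of Neurod6 stayed between 5.38 and 17.7 per 100 reads in all 16 libraries. Not called were Nptx2 (0.08), Rspo1, a secreted enhancer of Wnt signalling (-0.03), and Vstm2l, an immunoglobulin-domain protein, which had the lowest slope of the list (-0.13, SE 0.05, adjusted p 0.0872).

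Among 11 signalling, membrane and other genes 6 were called, with a median slope of 0.21. The steepest was Rtn4rl2, a homologue of the Nogo receptor, at 1.15 (SE 0.17, adjusted p 4.10e-05). It had only 0 to 46 reads per library, with 2 and 0 in BACHD+Con mice 2 and 3 and 0 in Con+Con mouse 4. It was at 3.29, 13.4, 8.60 and 0.957 CPM in BACHD+Foxp2 mice, at 4.47, 0.661, 0 and 9.25 CPM in BACHD+Con mice, at 6.12, 2.62, 8.62 and 7.37 CPM in Con+Foxp2 mice, and at 2.07, 2.57, 14.8 and 0 CPM in Con+Con mice. Mas1, the angiotensin-(1-7) receptor, followed at 0.55, the Ras-like GTPase Rasl10a at 0.50 and Mpped1 at 0.34. Lmo4, a LIM-only cofactor, at 0.16 and Hpcal4, a neuronal calcium sensor, at 0.15 were shallow and were both called. The scaffold protein gene Fhl2 (0.29, adjusted p 0.0739) and the copine Cpne4 (0.21, adjusted p 0.117) were positive without a call.

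Among the slopes nearest to 0 were those of Rspo1 and Camk2n1. Camk2n1 was at 734, 629, 723 and 674 CPM in BACHD+Foxp2 mice, at 681, 633, 645 and 776 CPM in BACHD+Con mice, at 692, 567, 660 and 699 CPM in Con+Foxp2 mice, and at 574, 862, 761 and 747 CPM in Con+Con mice. It was at 633 to 747 CPM in the 3 libraries lowest in Slc17a7, inside its range over all 16 (567 to 862 CPM), and its interval (-0.02 to 0.08) bounds the slope near 0. Rspo1 was at 6.95, 4.91, 15.5 and 11.8 CPM in BACHD+Foxp2 mice, at 7.22, 15.5, 10.7 and 17.0 CPM in BACHD+Con mice, at 17.4, 7.85, 7.29 and 4.64 CPM in Con+Foxp2 mice, and at 7.38, 20.9, 11.6 and 10.4 CPM in Con+Con mice, and its interval is wider (-0.25 to 0.19).

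**Figure D3:**
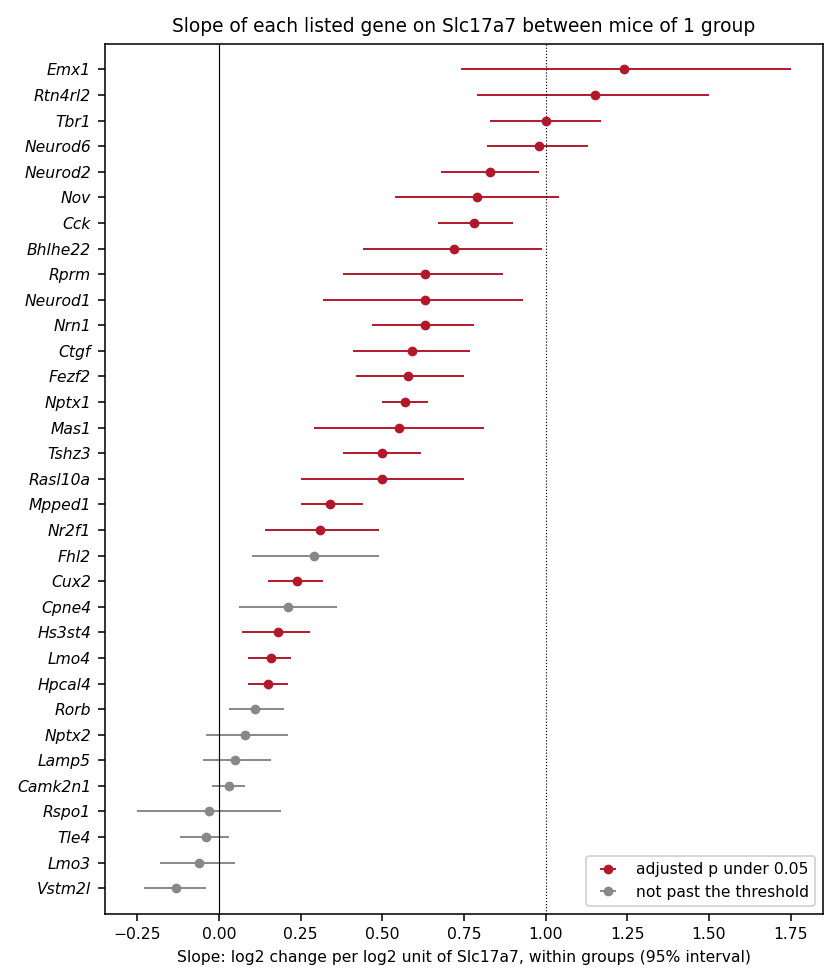
Slope of each of 33 listed genes on Slc17a7 within groups, in log2 units per log2 unit, with 95% intervals; red points passed an adjusted p of 0.05 and the dotted line marks a proportional change. Emx1, Rtn4rl2, Tbr1 and Neurod6 lie around 1, and 10 of the genes shown, from Fhl2 (0.29) down to Vstm2l (-0.13), were not called.

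The slope calls did not rest on the 3 low libraries alone. Of the 23 genes, 15 were called in every alternative fit run for them, which were 24 for each gene but 23 for Neurod6 and Tbr1, since each of these is the axis of 1 fit, and no slope of the 23 reversed. Without BACHD+Con mice 2 and 3 and Con+Con mouse 4, 16 genes were called and the median slope was 0.52. Among all genes 408 of 14283 were called in that fit, against 742 of 13562 with all libraries. With Neurod6 or Tbr1 in place of Slc17a7 as the axis, 21 were called in each case, and 523 and 539 of 13562 genes in all.

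The libraries that were low in Slc17a7 were not alike in the other genes. Con+Foxp2 mouse 2 and Con+Con mouse 2 had similar Slc17a7 (111 and 89.1 CPM), but Tbr1 was at 7.20 CPM in Con+Foxp2 mouse 2 and at 27.7 CPM in Con+Con mouse 2. Per 100 reads of Slc17a7 that is 6.51 and 31.0 reads of Tbr1. Con+Con mouse 4 likewise had 5.38 reads of Tbr1 per 100 of Slc17a7, while the other 14 libraries had between 19.8 and 47.4. The ratio of Con+Con mouse 4 rests on only 5 reads of Tbr1 and 93 of Slc17a7. Slc17a6, the glutamate transporter VGLUT2 of thalamic neurons, was at 81.2 CPM in Con+Foxp2 mouse 2 and at 39.4 CPM in Con+Con mouse 4, and at 50.4 CPM in Con+Con mouse 1, against 0.965 to 25.2 CPM in the other 13. The sum of 8 thalamic genes was likewise highest in these 3 libraries, at 881, 666 and 854 CPM, against 265 to 558 CPM elsewhere. Con+Con mouse 1, however, had 20.3 reads of Tbr1 per 100 of Slc17a7, unlike Con+Foxp2 mouse 2 and Con+Con mouse 4. The part of the thalamic genes in the Tbr1 ratio was not tested.

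BACHD+Foxp2 mouse 2 stood apart in other genes of the list. It had the highest Bhlhe22 (52.0 CPM), Nov (94.3 CPM) and Nrn1 (118 CPM) of all 16 libraries, although its Slc17a7 of 561 CPM was below that of Con+Con mouse 3. Dsp and Lct, listed as hippocampal genes, were at 85.4 and 23.9 CPM in this library, against at most 49.9 and 8.05 CPM in any other. Of the 8 genes listed as hippocampal, C1ql2 (5.56 CPM) was also highest here. Prox1 (63.2 CPM), Fibcd1 (8.51 CPM), Wfs1 (111 CPM), Spink8 (0.655 CPM) and Tdo2 (0 CPM) were each higher in some other library. Its oligodendrocyte genes summed to 2980 CPM, the lowest of the 16 libraries, whose range was 2980 to 9530 CPM. The part of either in these values was not tested.

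Genes outside the list were read on the same slope. Of 16 other genes of cortical excitatory neurons 11 were called, all positive, with a median slope of 0.28, and among those with the lowest p were Mef2c (0.27) and Slc30a3 (1.02). Of 20 genes of striatal projection neurons 16 were called, all negative, with a median slope of -0.17. The 3 with the lowest p were the enkephalin gene Penk (-0.21), the phosphatase regulator Ppp1r1b (-0.18) and the cyclase Adcy5 (-0.16). CPM are shares of a total, so the shares of different genes are not independent. Ppp1r1b was at 667 and 728 CPM in BACHD+Con mice 2 and 3, at 770 CPM in Con+Con mouse 4 and at 729 CPM in Con+Con mouse 2, the 4 libraries lowest in Slc17a7, against 335 to 572 CPM in the other 12. None of 8 thalamic, 10 oligodendrocyte, 9 astrocyte, 10 microglial, 7 choroid plexus and 6 septal and pallidal genes passed edgeR's threshold, 7 of these 50 had an unadjusted p under 0.05, and in these lists the median slopes ran from -0.23 to -0.03. Of 5 hippocampal genes Wfs1 was called (-0.18), and of 5 claustrum genes Nr4a2 (0.92). Of 11 interneuron genes Vip (0.72), Sst (0.15) and Gad2 (-0.18) were called.

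**Figure D4:**
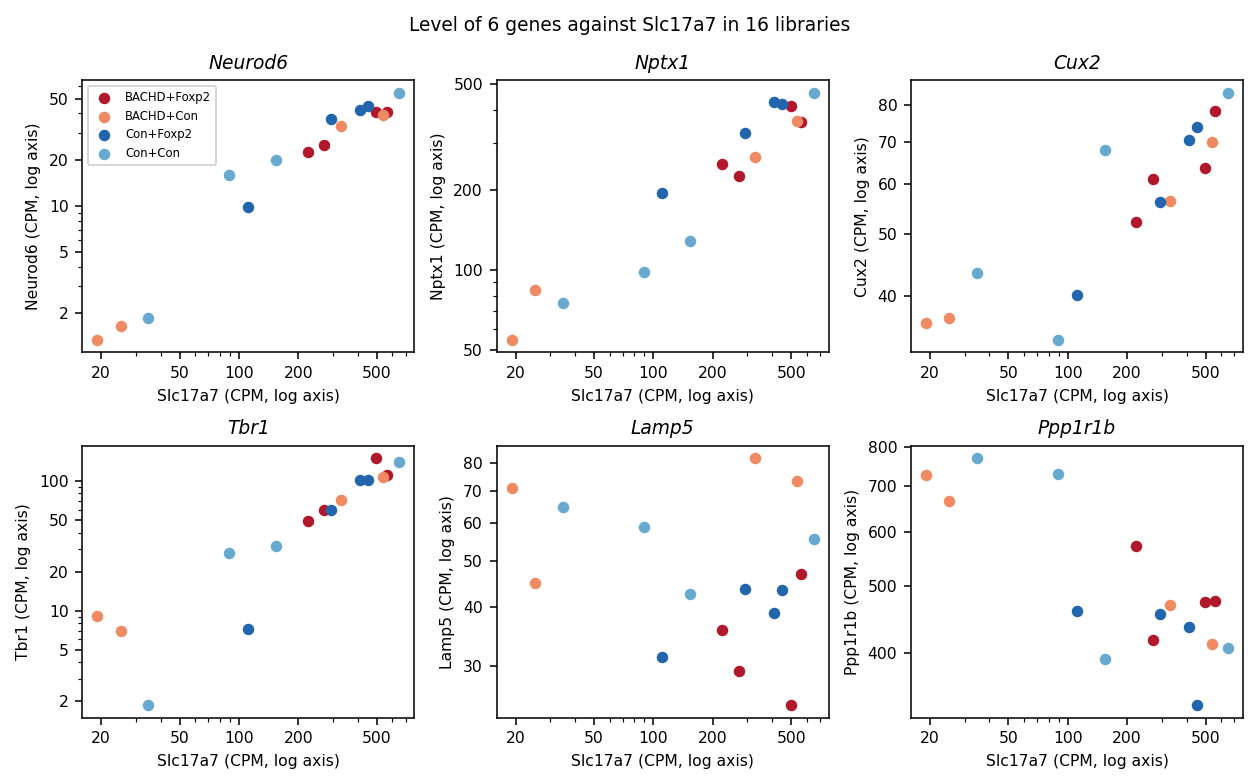
Level of 5 cortical genes on the list (Neurod6, Nptx1, Cux2, Tbr1 and Lamp5) and of Ppp1r1b, a gene of striatal projection neurons, against Slc17a7 in 16 libraries, in CPM with both axes on log scales; each point is a mouse, coloured by group. Neurod6 and Tbr1 are highest where Slc17a7 is high and lowest in libraries with little of it, Nptx1 and Cux2 level off at the low end, Lamp5 shows no trend and Ppp1r1b is highest, at 667 CPM or more, in the 4 libraries with the least Slc17a7.

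The deviation of Slc17a7 from its group mean was then set against 8 other measures of the same libraries, taken as deviations from their group means too (n = 16, permutation tests within groups, adjusted over the 8, of which 7 are given). It went with the first principal component of the genes outside the list (Pearson r = 0.85, permutation p 0.00177, adjusted 0.0142; Spearman rho = 0.84, permutation p 0.00153, adjusted 0.00612). The sign of a component is arbitrary and was set so that r with Slc17a7 was positive, so only the size of r and rho is informative. That component held 14.6% of their variance, little more than the second component (14%). Without the 2 libraries farthest from the median Slc17a7 deviation, r was 0.88. The Slc17a7 deviation ran against Foxp2 itself (r = -0.78, permutation p 0.00597, adjusted 0.0226; rho = -0.84, permutation p 0.00131, adjusted 0.00612), with r = -0.77 without those 2. Foxp2 is a gene of striatal projection neurons as well as the delivered gene. The 5 remaining measures did not pass in either form: reads assigned to genes (r = 0.08), number of genes with reads (r = -0.14), Slc17a6 (r = -0.02), Prox1 (r = -0.33) and Mbp (r = -0.24), with adjusted permutation p of 0.377 or more.

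The groups of the study were compared over the same 35 genes with edgeR's quasi-likelihood test. In BACHD mice the Foxp2 virus was set against the control virus. There 1 of the 35 genes was called, Lamp5, which was lower in BACHD+Foxp2. Among all 13563 genes 0.243% were called in either direction, and 0.155% were called lower. Lamp5, a lysosome-associated membrane protein of layer II and III neurons that is also found in GABAergic neurons, lies at chr2:136052239-136069917 on the plus strand. It was at 29.3, 46.8, 24.8 and 35.7 CPM in BACHD+Foxp2 mice, against 82.1, 44.9, 70.9 and 73.6 CPM in BACHD+Con mice. Only BACHD+Foxp2 mouse 2 and BACHD+Con mouse 2 overlapped. The means were 34.1 ± 9.56 CPM in BACHD+Foxp2 and 67.9 ± 16 CPM in BACHD+Con (SD, n = 4 each), a log2 fold change of -0.99 (SE 0.21, 95% interval -1.43 to -0.55, edgeR adjusted p 0.0465).

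The Lamp5 call lay at the threshold. It was lost in 18 of 24 alternative fits, with adjusted p between 0.00414 and 0.213 over the 24, while its log2 fold change stayed between -1.19 and -0.86. Leaving out BACHD+Foxp2 mouse 3 gave an adjusted p of 0.213, leaving out BACHD+Con mouse 1 gave 0.197, and a fit without the 3 libraries lowest in Slc17a7 gave 0.0647. Leaving out any other single library ended the call too, except for BACHD+Con mouse 2 and BACHD+Foxp2 mouse 2, without which the adjusted p was 0.0139 and 0.0190. With Slc17a7 as a further term in the fit the log2 fold change was -1.08 (adjusted p 0.0297). The authors' deposited table for this comparison lists Lamp5 with a log2 fold change of -0.70 and an adjusted p of 0.025, and it is the only one of the 34 listed genes with an adjusted p there that is under 0.05. The deposited fold changes of other genes were also smaller, as for Slc17a7 (0.10, against 0.78 here) and Rasl10a (0.45, against 1.57). Their sizes can thus not be compared directly with those given here.

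In control mice Lamp5 was at 43.5, 31.4, 43.4 and 38.8 CPM under the Foxp2 virus, against 42.5, 58.9, 55.6 and 64.7 CPM under the control virus. The means were 39.3 ± 5.68 CPM in Con+Foxp2 and 55.4 ± 9.42 CPM in Con+Con (SD, n = 4 each), with a log2 fold change of -0.49 (SE 0.21, edgeR adjusted p 0.620). The interaction, the Foxp2 change in BACHD mice less that in control mice, was -0.49 for Lamp5 (SE 0.30, 95% interval -1.11 to 0.12, edgeR adjusted p 1.00), so a difference between genotypes was not detectable.

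None of the other 34 genes was called for the Foxp2 virus in BACHD mice, and 3 of the 35 had an unadjusted edgeR p under 0.05, as did 7.73% of all genes. The 3 were Lamp5, Vstm2l (log2 fold change -0.46, adjusted p 0.609) and Rasl10a (1.57, SE 0.59, adjusted p 0.487). Rasl10a was at 5.49, 21.6, 11.4 and 5.10 CPM in BACHD+Foxp2 mice, against 7.56, 1.98, 2.35 and 2.70 CPM in BACHD+Con mice, and the groups overlapped through BACHD+Con mouse 1. The median log2 fold change over the 35 genes was 0.29, with 30 higher and 5 lower, against a median of 0 over all genes. Without BACHD+Con mice 2 and 3 and Con+Con mouse 4 that median was -0.10, with 9 higher and 26 lower, and with Slc17a7 as a further term it was -0.07. Of these 3 libraries, BACHD+Con mice 2 and 3 are the 2 that belong to this comparison, which leaves BACHD+Con mice 1 and 4. The 3 were left out for low Slc17a7, a listed gene that most of the others followed. The further term likewise uses Slc17a7, which is itself among the 35 genes of the median. The direction of the shifts in the median under either change was thus largely set in advance, here and in the comparisons below, and they are no test.

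In control mice none of the 35 genes was called for the Foxp2 virus with edgeR, DESeq2 or voom. Among all genes 0.229% were called by edgeR, and 2 of the 35 had an unadjusted p under 0.05 (7.04% of all genes). These were Lamp5 and Vstm2l, which was at 64.4, 48.8, 40.4 and 37.1 CPM in Con+Foxp2 mice, against 65.8, 69.8, 58.5 and 85.9 CPM in Con+Con mice (log2 fold change -0.55, SE 0.21, edgeR adjusted p 0.527). The largest value was that of Neurod1, at 1.53 (SE 0.75, adjusted p 0.713), with 95% limits of -0.01 and 3.07. The median over the 35 was 0.28 with 22 higher and 13 lower, and it was 0.05 without the 3 lowest libraries and -0.12 with Slc17a7 as a further term.

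The genotype comparisons share their groups with the virus comparisons, so the values are given side by side and not combined. Between BACHD+Con and Con+Con none of the 35 genes was called with edgeR, DESeq2 or voom, against 0.0147% of all genes with edgeR, and 2 had an unadjusted p under 0.05 (3.44% of all genes). Rorb was at 107, 59.8, 82.9 and 114 CPM in BACHD+Con mice, against 143, 84.3, 178 and 125 CPM in Con+Con mice, a log2 fold change of -0.54 (SE 0.20, edgeR adjusted p 1.00). Hpcal4 was at 590, 387, 474 and 589 CPM in BACHD+Con mice, against 399, 422, 473 and 280 CPM in Con+Con mice, a log2 fold change of 0.37 (SE 0.18, edgeR adjusted p 1.00). Both pairs of groups overlapped. The median over the 35 was 0.00, and it was 0.39, with 29 higher and 6 lower, without the 3 lowest libraries.

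Between BACHD+Foxp2 and Con+Foxp2, a comparison with none of the 3 lowest libraries, none of the 35 was called with edgeR, DESeq2 or voom, against 0.059% of all genes with edgeR, and 0 had an unadjusted p under 0.05 (4.18% of all genes). Foxp2 itself was at 1290 to 1930 CPM in BACHD+Foxp2 mice and at 3500 to 4390 CPM in Con+Foxp2 mice. Genotype and Foxp2 level can thus not be told apart here or in the interaction. The median was 0.10, and the values ran from -0.44 for Neurod1 to 1.16 for Rprm. In the interaction of genotype and virus 0 of the 35 and 0 of all genes (0%) were called with edgeR, 0 of the 35 had an unadjusted p under 0.05 (3.8% of all genes), and the median was 0.23. That median had no stable sign, being -0.44 without Con+Con mouse 3, 0.57 without BACHD+Con mouse 4 and -0.05 without the 3 libraries lowest in Slc17a7. DESeq2 and voom also called 0 of the 35 there, and 4 and 0 of all genes.

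In none of the 4 group comparisons were the CPM of all mice of one group above or below those of the other for any of the 35 genes. Among all genes this was so for 4.14% for the Foxp2 virus in BACHD mice, for 5.01% for it in control mice, for 2.43% between BACHD+Con and Con+Con, and for 3% between BACHD+Foxp2 and Con+Foxp2.

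The intervals were wide where the spread was. For Slc17a7 the log2 fold change of BACHD+Foxp2 over BACHD+Con was 0.78 (95% interval -0.78 to 2.34), and that of Con+Foxp2 over Con+Con was 0.45 (-1.10 to 2.00). For Tbr1 they were 0.94 (-0.67 to 2.54) and 0.43 (-1.16 to 2.03). A 2-fold rise lies inside all 4 of these intervals and was not detectable with 4 mice per group. A 2-fold fall lies inside the Con+Foxp2 over Con+Con intervals but outside those of BACHD+Foxp2 over BACHD+Con. For genes that did not follow Slc17a7 the intervals were narrower, as for Rorb in BACHD+Foxp2 over BACHD+Con (0.15, -0.26 to 0.56).

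**Figure D5:**
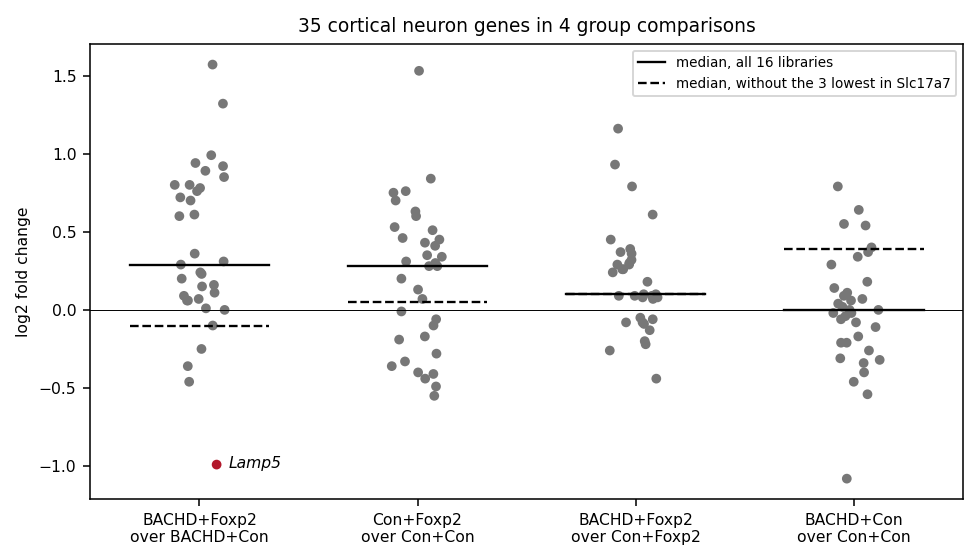
Log2 fold change of each of the 35 genes in the 4 group comparisons; solid bars are medians over all 16 libraries and dashed bars medians without the 3 libraries lowest in Slc17a7, and Lamp5, the one called gene, is red. The dashed bar lies below 0 for BACHD+Foxp2 over BACHD+Con (-0.10, against 0.29 with all libraries) and above it for BACHD+Con over Con+Con (0.39, against 0.00). The 3 libraries were chosen by Slc17a7, a gene of the list, so these shifts are no test.

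The calls among all genes were also counted without the 3 lowest libraries. For the Foxp2 virus in BACHD mice 33 genes were called with all libraries and 6 without the 3, of which 5 were among the 33. For the Foxp2 virus in control mice 31 were called with all libraries and 21 without the 3, of which 19 were among the 31. Fewer mice also lower the number of calls, and the 2 parts were not separated. With Slc17a7 as a further term and all 16 libraries kept, 25 genes were called in BACHD mice, 21 of them among the 33, and 41 in control mice, 30 of them among the 31.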

How the data were processed

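Striatal RNA of 16 mice (4 groups of 4) was extracted with the Qiagen RNeasy Lipid Tissue kit and made into libraries with Clontech SMARTer chemistry, per the labels' protocols. The authors deposited whole-number read counts per gene for each mouse, which are not normalized. STAR 2.4.0, HTSeq, DESeq2 and the build mm10 appear in the submitters' processing notes. The strand setting of the counting is not stated there, so overlapping genes such as Neurod1 and Cerkl may share reads. In 3 further tables the authors deposited log2 fold changes and adjusted p-values of their comparisons, which served only for a side-by-side reading. The 5 summary lines of each count table were left out, and reads assigned to genes were 22.5% to 24.7% of the listed reads. No 2 libraries agreed within sampling noise.

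The test was edgeR's quasi-likelihood test (version 4.0.16, R 4.3.3), two-sided, with trimmed mean of M values scaling, filterByExpr, 1 mean per group and Benjamini-Hochberg adjustment over all tested genes (threshold 0.05). The slope on Slc17a7 adds its log2 CPM (prior count 2) to the group means. Intervals are 95% and use the fit's degrees of freedom. The scripts were tested on simulated data. Alternatives were other size factors, no filter, DESeq2 1.42.0, voom in limma 3.58.1, a replicate block, each library left out, only the groups compared, and other marker genes. A fit without the 3 libraries lowest in Slc17a7 and one with Slc17a7 as a further term were chosen after seeing the data. The genes, the other lists and the rule for named genes were chosen with earlier results of these data known. By that rule per-library values are given for Slc17a7, Neurod1, Neurod2, Neurod6, Tbr1, Emx1, genes called between groups, the 3 steepest slopes and, apart from results that are not reported here, the 3 flattest; others with per-library values were chosen after theirs were seen. Reads carry no molecular identifiers, so floors cover counting error only. Promoter sequences are RefSeq's on GRCm38.p6.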

Additional observations from a re-analysis of the deposited data

Results flagged for a closer look

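In 9 of 140 sets of 4 mice (35 genes in 4 groups), 1 mouse stood apart from the other 3, with a gap to its nearest neighbour that exceeded Dixon's 95% critical value for the share of the group's range, both taken on log2 CPM (prior count 2). The levels below are in CPM, and each gap is the share of the range on that log2 scale. Chance alone flags about 1 in 20 sets, and 9 of 140 is close to that. Many of the genes move together within a mouse, so the sets are not independent. A share over all tested genes is not given, and the flagged values are only described. Con+Foxp2 mouse 2, with the lowest Slc17a7 of its group, was low in 3 of them. Its Neurod6 was at 9.82 CPM, against 37.0 to 44.4 CPM in the other 3 (gap 0.877 of the range). Its Mpped1 was at 27.2 CPM, against 66.6 to 77.6 CPM (0.854), and its Hpcal4 at 303 CPM, against 524 to 555 CPM (0.905).

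Con+Con mouse 3, the library highest in Slc17a7, had Ctgf at 40.5 CPM, against 5.58 to 7.72 CPM (0.844), and Fhl2 at 25.4 CPM, against 7.81 to 9.01 CPM (0.882). Con+Con mouse 4 had Nov at 0.372 CPM, against 28.3 to 47.3 CPM (0.869). In BACHD+Foxp2, mouse 2 had Nov at 94.3 CPM, against 18.7 to 22.4 CPM (0.89), and mouse 4 had Rprm at 12.1 CPM, against 20.5 to 22.0 CPM (0.878). In BACHD+Con, mouse 3 had Lmo3 at 88.3 CPM, against 82.1 to 82.9 CPM (0.865), a gap that is small in absolute terms.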

How the results depend on the processing

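The number of listed genes called for the Foxp2 virus in BACHD mice, 1 with all libraries, was 0 with the replicate block, with voom, with only the groups compared and without the 3 libraries lowest in Slc17a7, and it ran from 0 to 1 when each library was left out in turn. The adjusted p of Lamp5, the gene concerned, was 0.126 with the block, 0.0699 with voom and 0.179 with only the groups compared; the cause was not tested. In the 3 other group comparisons and the interaction the number called was 0 in every alternative run. Leaving out each library in turn moved the median log2 fold change of the 35 genes from 0.14 to 0.57 for the Foxp2 virus in BACHD mice, from 0.04 to 0.77 for it in control mice, from -0.35 (BACHD+Con mouse 4 left out) to 0.47 (Con+Con mouse 3 left out) for genotype under the control virus, from 0.01 to 0.24 for genotype under the Foxp2 virus, and from -0.44 to 0.57 for the interaction.

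The number of genes that followed Slc17a7, 23, was 19 to 24 when each library was left out in turn, with 19 without Con+Con mouse 3, and 23 with the replicate block. It was 26 without the filter on low counts and 16 without the 3 lowest libraries. Among all genes 384 of 13841 were called without Con+Con mouse 3 and 587 of 13562 with the block. The totals were 924 of 20068 without the filter and 408 of 14283 without the 3 lowest libraries. Mice with the same number did not deviate together (24 pairs, r from -0.17 to 0.10), so the block is only an alternative. Depth limits the lowest genes: Emx1 had 0 to 25 reads per library and Rtn4rl2 0 to 46.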
